A study of Mus musculus with 15 samples.

Results

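The acute phase protein genes described here are Saa1, Saa2, Saa3, Orm1, Orm2, Hp, Hpx, Crp, Fga and Fgb. They were taken by name from the gene table, and all 10 were found among 23589 named loci and 33603 loci in all. Liver, colon (the intestinal mucosa), epididymal fat, hippocampus and hypothalamus were taken from male mice of the inbred strain C57BL/6, and their RNA was sequenced. AL mice ate freely and were 5 months of age, DR mice had received 60% of that food for 1 month and were also 5 months of age, and DR-AL mice had 1 month of DR and then 2 months of AL feeding and were 7 months of age, so that diet and age cannot be told apart in DR-AL. Each library was made from RNA of 5 mice mixed together, and there was 1 library for a tissue under a diet, 15 in all, so that no group had a replicate within a tissue.

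Acute phase proteins are plasma proteins, made mainly by hepatocytes, whose concentration shifts when cytokines such as interleukin-6 and interleukin-1 reach the liver during infection or injury. Interleukin-6 acts through gp130, JAK kinases and STAT3, and interleukin-1 acts through NF-kB, and C/EBP factors bind many of the promoters concerned. Serum amyloid A is also made by intestinal epithelium, and haptoglobin, orosomucoid and Saa3 are also made in adipose tissue.

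The members fall into families. Saa1 (chr7:46740497-46742980) and Saa2 (chr7:46751790-46754313) encode the serum amyloid A proteins that ride on high density lipoprotein in an acute phase, and Saa3 (chr7:46711998-46715700) encodes a serum amyloid A made largely outside the liver. Orm1 (chr4:63344560-63348163) and Orm2 (chr4:63362449-63365878) encode orosomucoid, a plasma glycoprotein that binds small molecules. Hp (chr8:109575128-109579172) encodes haptoglobin, which binds free hemoglobin, and Hpx (chr7:105591613-105600137) encodes hemopexin, which binds free heme. Crp (chr1:172698055-172833031) encodes C-reactive protein, a pentraxin that in the mouse responds weakly in an acute phase. Fga (chr3:83026076-83033627) and Fgb (chr3:83040141-83049863) encode chains of fibrinogen, the precursor of fibrin. These positions are whole genes in the GENCODE M21 annotation of GRCm38, and the positions of the deposited table overlapped them for none of the 10 genes, although the chromosome was the same for each.

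The upstream sequences are shown because Saa1 and Saa2 kept nearly the same ratio in the 3 liver libraries, whereas Saa3 and Fgb took other courses. RefSeq promoters of GRCm38.p6 were at hand for 8 of the 10 genes. Orm1 and Hp had no entry. The stretch from 250 to 51 bases before the start is at chr7:46743031-46743230 (- strand) for Saa1, chr7:46751583-46751782 (+ strand) for Saa2, chr7:46715727-46715926 (- strand) for Saa3 and chr3:83049914-83050113 (- strand) for Fgb. Each is written 5′ to 3′ on the strand of its gene, with motif matches in capitals.
Saa1: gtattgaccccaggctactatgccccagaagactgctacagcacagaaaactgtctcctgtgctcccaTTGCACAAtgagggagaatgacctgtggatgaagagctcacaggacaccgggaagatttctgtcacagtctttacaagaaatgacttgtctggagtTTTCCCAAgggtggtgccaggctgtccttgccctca
Saa2: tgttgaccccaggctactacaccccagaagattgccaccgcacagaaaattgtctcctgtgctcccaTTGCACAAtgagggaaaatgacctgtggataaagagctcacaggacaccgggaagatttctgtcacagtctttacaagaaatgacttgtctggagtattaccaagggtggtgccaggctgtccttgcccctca
Saa3: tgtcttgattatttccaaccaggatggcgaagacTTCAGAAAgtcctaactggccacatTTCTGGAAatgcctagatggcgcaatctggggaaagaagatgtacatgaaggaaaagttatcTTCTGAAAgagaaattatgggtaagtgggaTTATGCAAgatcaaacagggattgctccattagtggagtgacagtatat
Fgb: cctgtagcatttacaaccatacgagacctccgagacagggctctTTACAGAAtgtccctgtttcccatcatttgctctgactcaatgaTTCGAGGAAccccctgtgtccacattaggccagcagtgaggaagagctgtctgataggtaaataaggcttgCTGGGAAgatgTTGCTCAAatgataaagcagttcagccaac
Saa1 and Saa2 are transcribed away from each other, with 8853 bases between their starts. Their stretches had 188 identical bases in 201 aligned columns (93.5%), and the other 27 pairs of members ranged from 39.6% to 54.3%. Motifs were searched on both strands. The C/EBP motif TTNNGNAA was present in 8 of 8 member stretches and in 32.3% of 32851 promoter stretches. The STAT3-type element TTCNNNGAA was found in Fga and Fgb and in 5.76% of all stretches. The type II interleukin-6 element CTGGGAA was found in Fgb and in 7.22% of all stretches. The kappa-B consensus was found in 0 of the 8 and in 3.13% of all. In Saa1 and Saa2 a C/EBP match with the letters TTGCACAA stood at nearly the same distance from the start, beginning at position -182 in Saa1 and -183 in Saa2, counted back from the start, and the other Saa1 match, TTTCCCAA, had no counterpart in Saa2. In Fgb the interleukin-6 element lay just upstream of a C/EBP match. Such matches describe letters only, and the part of these stretches in the expression values was not tested. The ratio of Saa1 to Saa2 counts was 2.48 to 2.68 in the liver libraries and 217 to 260.5 in the colon libraries.

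Paralogs may exchange reads. Of the 75-base windows in annotated transcripts, 18.5% of those of Saa1 and 17.8% of those of Saa2 were the same in the other gene, and 13.8% of Orm1 windows and 14.0% of Orm2 windows were shared, for Orm1 with Orm2 and for Orm2 with Orm1 and Orm3. Saa3 shared 0.922% of its windows with genes outside the family. Hp, Hpx, Crp, Fga and Fgb shared none. Windows were pooled over all annotated transcripts of a gene. Saa1 had 2544 and Saa2 2641 of them, and Orm1 and Orm2 had 701 each. The percents are therefore not shares of the reads of a gene, and they cannot be compared between the families.

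Counts on named loci came to between 21767088 and 24734599 in the liver libraries, 22829358 and 27357403 in fat and 25043727 and 33422262 in colon. The members took 1.35% to 1.45% of them in liver, 0.0953% to 0.415% in fat and 0.157% to 0.256% in colon. Levels below are CPM, counts scaled to the usual common library total, and 3 counts, the most that a count of 0 allows, equal about 0.121 CPM in the AL liver library. The AL fat library stood apart. The 19 liver genes with counts, a list of hepatocyte genes that are no positive acute phase genes, were at a median of 13.5% of their CPM in the AL liver library there, against 0.157% in DR fat and 0.0341% in DR-AL fat. Another list stood apart in the opposite direction, with 7 testis germ cell genes summing to 4.77 CPM in AL fat, 583 CPM in DR fat and 2818 CPM in DR-AL fat. Alb is listed at 0 in the liver libraries and gave no value. In libraries of whole tissue, fewer cells of a type and less RNA per cell cannot be told apart.

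In the AL liver library the members ranged over FPKM, the scale per transcript length on which genes can be compared. Hpx was at 6028 FPKM, Hp at 4550 and Fgb at 3464. Fga followed at 1836, Orm1 at 1795 and Crp at 499.5. Saa1 stood at 423.8, Saa2 at 170.2, Orm2 at 64.95 and Saa3 at 20.04. The order of the 6 most abundant was the same in all 3 liver libraries. Saa1 came after Orm2 in the DR library, at 23.7 FPKM against 70.4, and before it in the AL and DR-AL libraries. Saa3 was lowest in AL and DR and was above Orm2 in DR-AL, at 34.2 FPKM against 19.5.

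**Figure D1:**
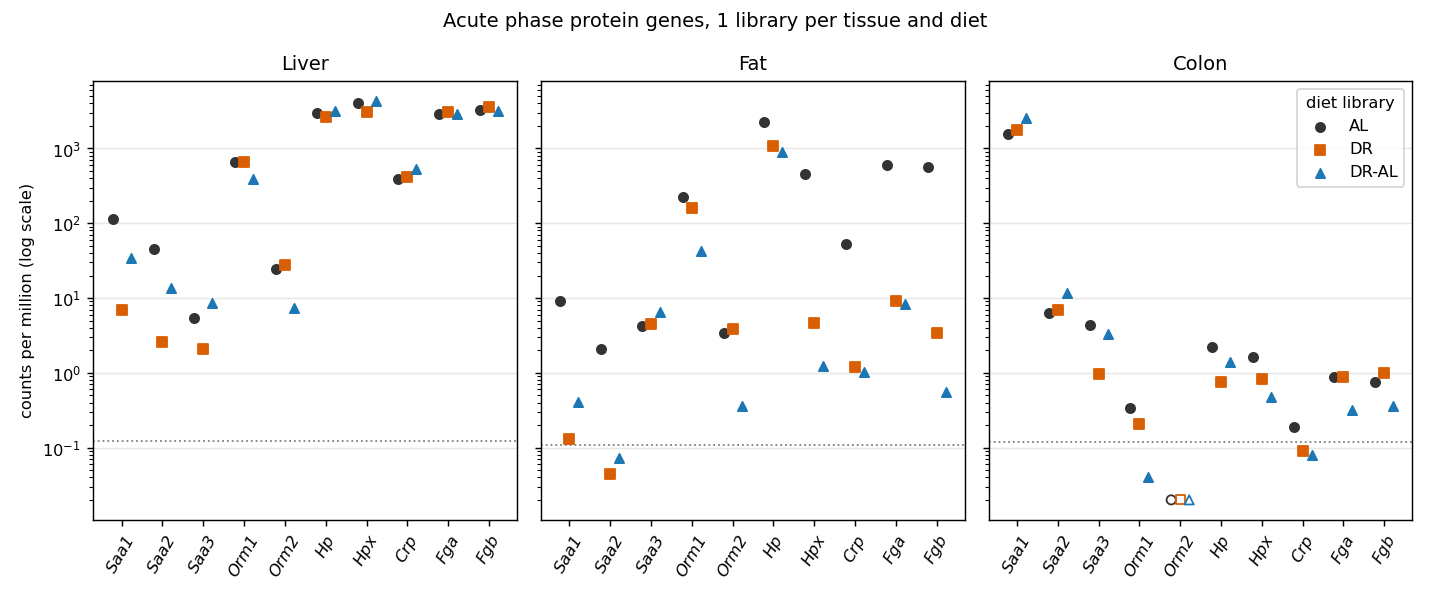
Level of each gene as CPM (log axis) in the AL, DR and DR-AL library of liver, fat and colon, 1 point per library. The dotted line is the level of 3 counts, open symbols mark 0 counts, and in the liver only Saa1, Saa2, Saa3, Orm1 and Orm2 differ visibly between diets on this scale.

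A gene was called changed between a pair of libraries at an adjusted p under 0.05 in the Z test and a ratio of at least 5 to 4 in either direction, and the call compares these pooled libraries, not diets. Log2 differences come from scaled counts with 0.5 added, and 95% intervals are exact and cover counting error only. In the liver, the serum amyloid A genes were the members that differed most between DR and AL. Saa1, Saa2, Saa3 and Hpx fell in DR against AL, and 0 of the 10 rose. Over all 17408 genes tested in the liver, 9.92% fell and 18.0% rose.

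Saa1 was at 113 CPM (AL), 6.89 (DR) and 34.1 (DR-AL), from 2790, 150 and 835 counts. The DR library was lowest and the DR-AL library lay between the other two. Relative to AL, Saa1 fell by 4.03 on the log2 scale in DR (interval of the difference -4.28 to -3.80) and by 1.73 in DR-AL (-1.84 to -1.61). It rose by 2.30 from DR to DR-AL (2.05 to 2.57). Among the 9370 liver genes averaging at least 100 counts, 5 had a lower log2 difference than Saa1 in DR against AL.

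Saa2 followed the same course at lower counts. Its counts were 1121 (AL), 56 (DR) and 337 (DR-AL), which are 45.3, 2.57 and 13.8 CPM. Saa2 fell by 4.13 in DR (-4.55 to -3.75) and by 1.72 in DR-AL (-1.90 to -1.54) against AL. It rose by 2.41 from DR to DR-AL (2.01 to 2.85). The ratio of Saa1 to Saa2 counts was 2.49 (AL, 2.32 to 2.67), 2.68 (DR, 1.96 to 3.71) and 2.48 (DR-AL, 2.18 to 2.82). The 3 intervals overlapped, so the pair moved without a detectable shift in its ratio at this depth.

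Saa3 was counted 133 times in the AL, 45 times in the DR and 212 times in the DR-AL liver library, or 5.38, 2.07 and 8.66 CPM. DR was again lowest, but DR-AL was highest. Saa3 fell by 1.37 in DR against AL (-1.90 to -0.88). It rose by 0.68 in DR-AL against AL (0.37 to 1.01) and by 2.05 against DR (1.60 to 2.56). Lists of macrophage and neutrophil genes were summed in the same libraries. Macrophage genes, from 10 listed names of which 9 matched a locus, summed to 152 CPM (AL), 149 (DR) and 156 (DR-AL), with 0 of the 9 at 0. The genes behind that level sum took different courses. Emr1 had 142, 80 and 187 counts and Lyz2 729, 502 and 911 in AL, DR and DR-AL, lowest in DR as Saa3 was, whereas Marco had 192, 548 and 181. Of the 9, 2 rose and 3 fell in DR against AL, 3 rose and 4 fell in DR-AL against AL, and 3 rose and 2 fell in DR-AL against DR. Neutrophil genes, 8 of 9 listed with a locus, summed to between 2.71 and 3.90 CPM, with 2 or 3 at 0. Their part in the Saa3 result was not tested.

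Orosomucoid was called changed only in the comparisons with DR-AL. Orm1 was at 669 CPM (AL), 663 (DR) and 392 (DR-AL), and Orm2 at 24.2, 27.9 and 7.27. Neither was called in DR against AL, with log2 differences of -0.01 (-0.05 to 0.02) for Orm1 and 0.21 (0.04 to 0.37) for Orm2. Orm1 fell by 0.77 (-0.81 to -0.74) and Orm2 fell by 1.73 (-1.98 to -1.49) in DR-AL against AL. Both also fell against DR, Orm1 by 0.76 and Orm2 by 1.94. The ratio of Orm1 to Orm2 counts was 27.7 (AL, 25.5 to 30.1), 23.8 (DR, 21.9 to 25.8) and 53.9 (DR-AL, 46.5 to 62.9), so Orm2 was the lower of the pair in proportion in DR-AL. Other lists moved in the same libraries. Of the 19 liver genes tested, 1 rose and 7 fell in DR-AL against AL (median -0.13), and 3 rose and 10 fell against DR (median -0.35), among them Kng1, the kininogen gene, from 81550 to 45761 counts, and Ambp (-0.84). Mesothelium genes, 6 of 6 with a locus and 0 at 0, summed to 4.25 CPM (AL), 7.12 (DR) and 15.6 (DR-AL), and 5 of the 6 rose in DR-AL against AL, with a median of 2.10. The part of these lists in the orosomucoid result was not tested.

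The abundant scavenger and clotting genes moved less. Hpx was at 4094 CPM (AL), 3099 (DR) and 4313 (DR-AL). Hpx fell by 0.40 in DR against AL (-0.42 to -0.39), rose by 0.48 in DR-AL against DR (0.46 to 0.49) and was not called in DR-AL against AL, at 0.08 (0.06 to 0.09). Hp was at 2979, 2672 and 3141 CPM in AL, DR and DR-AL and was called in none of the 3 comparisons, with differences of -0.16 in DR and 0.08 in DR-AL against AL. With size factors in place of totals Hp passed in DR-AL against DR, at 0.34. The ratio of Hp to Hpx counts was 0.728 (AL), 0.862 (DR) and 0.728 (DR-AL).

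Crp was at 387 CPM (AL), 419 (DR) and 529 (DR-AL). It was not called in DR against AL, at 0.11 (0.07 to 0.16). In DR-AL Crp rose by 0.45 against AL (0.41 to 0.49) and by 0.34 against DR (0.30 to 0.38). Fga was at 2880, 3051 and 2866 CPM in AL, DR and DR-AL, and Fgb at 3224, 3553 and 3157. Neither fibrinogen gene was called in any liver comparison. Against AL, Fga differed by 0.08 in DR and -0.01 in DR-AL, and Fgb by 0.14 and -0.03. From DR to DR-AL the differences were -0.09 for Fga and -0.17 for Fgb.

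**Figure D2:**
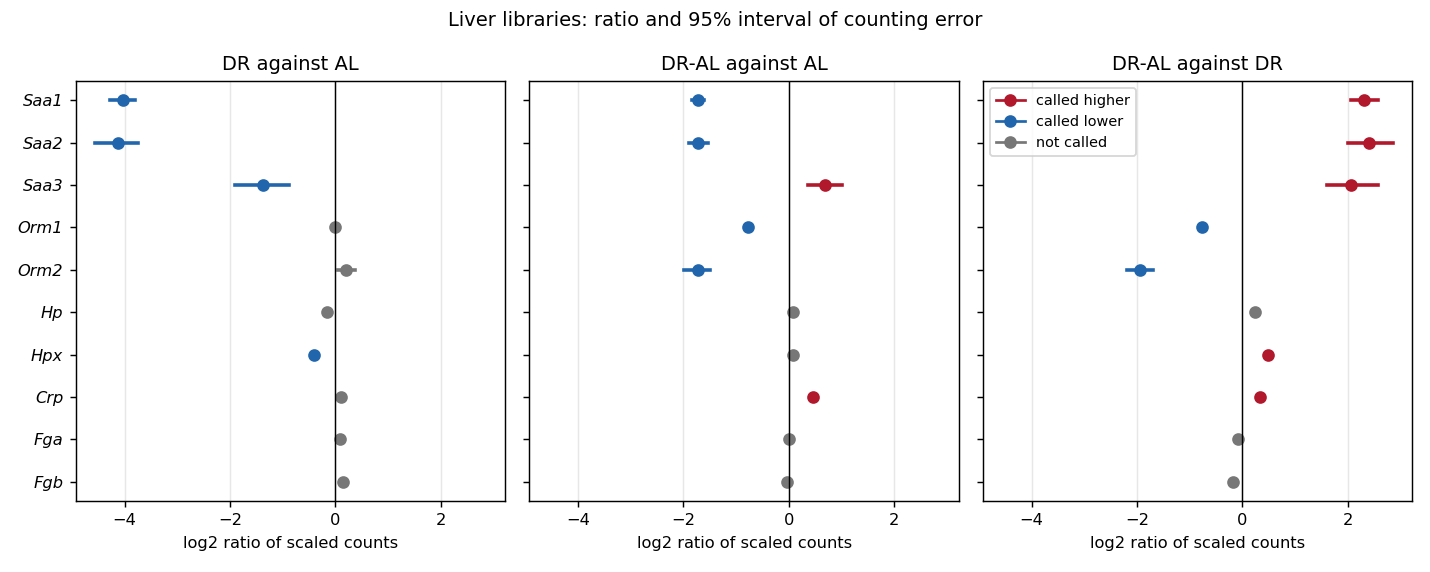
Log2 ratio of scaled counts between pairs of liver libraries for each gene, with 95% intervals of counting error as bars. Saa1 and Saa2 lie near -4 in DR against AL, between -2 and -1 in DR-AL against AL and above 2 in DR-AL against DR, while Fga and Fgb lie near 0 in each panel.

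In DR-AL against AL, Saa3 and Crp rose and Saa1, Saa2, Orm1 and Orm2 fell, and the background was 15% of liver genes called higher and 15.8% called lower. In DR-AL against DR, Saa1, Saa2, Saa3, Hpx and Crp rose and Orm1 and Orm2 fell, against 16.9% of genes called higher and 24.0% called lower. The median log2 difference of the 10 members was -0.08 in DR against AL, -0.02 in DR-AL against AL and 0.29 in DR-AL against DR, beside 0.10, 0.0 and -0.11 over all genes tested. Both comparisons with AL use the same AL library. With DESeq size factors, the liver genes called in DR against AL divided into 2439 higher and 2381 lower in place of 3140 and 1727, and those in DR-AL against DR into 3641 higher and 3482 lower in place of 2940 and 4171. No called member turned direction in the liver, and Fga, not called, changed sign in all 3 comparisons, to -0.0048 in DR against AL, 0.01 in DR-AL against AL and 0.02 in DR-AL against DR. When a spread between libraries with a coefficient of variation of 0.4 was allowed, Saa1 and Saa2 in DR against AL were the only member calls left in the liver. With a coefficient of 0.1, the calls lost were Hpx in DR against AL, Saa3 and Crp in DR-AL against AL, and Hpx and Crp in DR-AL against DR.

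Other genes of the acute phase were taken from a list of 25 names on 24 loci, since Serpina3m and Serpina3n fall on 1 locus that was counted once, and 23 loci were tested in the liver. In DR against AL, 5 rose and 7 fell, with a median of -0.15. Hamp2, a hepcidin gene, rose by 3.77 from 176 to 2114 counts, Apcs, which encodes serum amyloid P, rose by 1.22, and Hamp, the hepcidin that restrains iron release, rose by 0.70. Serpina3k, a protease inhibitor gene, fell by 0.63, Fgl1, a fibrinogen-like protein gene, by 0.56, and Itih3 of the inter-alpha-trypsin inhibitors by 0.55. In the same liver libraries, the relatives Fgg (0.05) and Saa4 (-0.24) were not called and Orm3 rose (1.00).

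For DR-AL against AL, 7 of the 23 rose and 4 fell. Mt2 and Mt1, the metallothioneins that bind zinc, rose by 0.82 and 0.79, and Apcs rose by 0.69. Hamp2 fell by 1.68, Saa4 fell by 0.82 and Itih4 fell by 0.49. From DR to DR-AL, 8 rose and 5 fell, with Mt2 (1.23), Fgl1 (0.89) and Serpina3k (0.79) among those higher and Hamp2 (-5.45), Saa4 (-0.58) and Apcs (-0.53) among those lower.

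Of 11 negative acute phase genes, whose plasma proteins drop in inflammation, 10 were tested. In DR against AL 4 rose and 0 fell. Among those higher, Serpina6, the corticosteroid-binding globulin, rose by 1.10 and Ttr, the thyroid hormone carrier transthyretin, by 0.88. Apoa2, an apolipoprotein gene of high density particles, rose by 0.40. Against AL, in DR-AL, Apoa1 rose by 0.70 and Serpina6, Gc and Ttr fell by 1.97, 0.36 and 0.35. From DR to DR-AL, 1 rose and 5 fell, including Serpina6 (-3.07) and Ttr (-1.23).

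Of 25 genes of cytokine signalling, 4 rose and 4 fell in DR against AL, the same numbers rose and fell in DR-AL against AL, and 3 rose and 5 fell in DR-AL against DR. Socs3, a feedback inhibitor that STAT3 induces, was counted 140 times in AL livers, 81 times in DR and 204 times in DR-AL. It fell by 0.60 in DR and rose by 0.56 in DR-AL against AL, and rose by 1.16 from DR to DR-AL. Cebpd, a C/EBP factor, was not called in DR against AL (-0.17), and rose by 0.53 in DR-AL against AL and by 0.70 against DR. The receptor genes Il1r1 and Il6ra rose by 0.45 and 0.36 in DR against AL, with Nfkbia, the NF-kB inhibitor, at 0.33. Il6, the gene of interleukin-6 itself, had 0, 0 and 1 counts in the AL, DR and DR-AL liver libraries, at or below the level of 3 counts.

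In fat, what the members show has to be read beside the liver genes. Saa1, Saa2, Orm1, Hp, Hpx, Crp, Fga and Fgb fell in DR against AL and 0 rose, where 10.4% of all 20382 genes tested in fat fell and 35.2% rose. All 19 tested liver genes fell too, with a median log2 difference of -6.36. In DR-AL against AL, Saa3 rose and the other 9 members fell, beside 46.0% of genes called higher and 11.9% called lower, and again 19 of 19 liver genes fell, with a median of -8.74. In DR-AL against DR, Saa3 rose and Orm1, Orm2, Hpx and Fgb fell, beside 38.3% higher and 13.3% lower, and 16 of 19 liver genes fell and 1 rose. The members' median log2 difference was -5.24 in DR and -4.46 in DR-AL against AL and -0.25 in DR-AL against DR, beside 0.23, 0.39 and 0.28 over all genes tested. The part of the liver genes and of the testis germ cell genes in these values was not tested.

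The members divided by how far they followed the liver genes. In AL fat, Hpx stood at 11.3% of its AL liver CPM, Crp at 13.6%, Orm2 at 13.9%, Fgb at 17.7% and Fga at 21.0%, within the range of the liver genes, which was 8.16% to 55.2% with quartiles of 12.3% and 15.8%. Saa1 (8.08%) and Saa2 (4.55%) were below that range. Hp (74.7%) and Saa3 (78.7%) were above it, and Orm1 (33.2%) was within it but above its upper quartile. The top of the range was Cyp2e1, a cytochrome P450 gene, alone, and the next liver gene, Cps1, was at 29.8%, below Orm1.

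Hpx counts were 12093 (AL fat), 106 (DR fat) and 34 (DR-AL fat). Fga had 15837, 210 and 225 counts, Fgb 14973, 78 and 15, and Crp 1377, 27 and 28 in AL, DR and DR-AL fat. For each of these 4 genes AL fat was far above both other libraries. The log2 differences from AL were -6.63 and -8.51 for Hpx, -6.03 and -6.20 for Fga, -7.38 and -9.97 for Fgb, and -5.45 and -5.65 for Crp, in DR and DR-AL. Saa1 had 239, 3 and 11 counts and Saa2 had 54, 1 and 2 in the same order. The intervals were wide at these counts, -8.40 to -4.55 for Saa1 and -10.89 to -3.02 for Saa2 in DR against AL. In DR and DR-AL fat, every member except Hp and Saa3 was within the range of the liver genes. The top of that range was Cyp2e1 alone, and the next liver gene was at 0.953% in DR and 0.698% in DR-AL. Orm1 and Orm2 were above that next gene in both libraries. Hpx and Fgb were at 0.113% and 0.106% of their AL liver CPM in DR and at 0.0304% and 0.0170% in DR-AL.

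Hp kept a high level in every fat library. It was at 2224 CPM (AL), 1089 (DR) and 892 (DR-AL), with AL highest. Hp fell by 1.03 in DR (-1.05 to -1.01) and by 1.32 in DR-AL (-1.34 to -1.30) against AL, and was not called in DR-AL against DR, at -0.29. It passed in that comparison with size factors, at -0.44, and with totals that leave out the 10 most abundant genes, at -0.33, and the deposited FPKM were 286 and 131. DR fat had 36.6% and DR-AL fat 29.96% of the AL liver CPM, above the highest liver gene in each (33.3% and 26.1%, both Cyp2e1). There were 4.82 Hp counts per Hpx count in AL fat, 235 in DR fat and 718 in DR-AL fat, against 0.728 to 0.862 in liver.

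Orm1 was at 222 CPM in AL fat, 159 in DR fat and 41.9 in DR-AL fat, in falling order. Its log2 differences, each called, were -0.48 for DR and -2.40 for DR-AL against AL, and -1.92 for DR-AL against DR. Orm2 had 88, 89 and 10 counts. It was not called in DR against AL, at 0.21 (-0.23 to 0.66), and fell in DR-AL, with -3.13 against AL and -3.35 against DR. DR fat thus held 23.7% of the liver level of Orm1 and 16.1% of that of Orm2, where the liver gene median was 0.157%.

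Saa3 counts were 111 (AL fat), 104 (DR fat) and 180 (DR-AL fat), or 4.23, 4.56 and 6.58 CPM. DR-AL was highest. It was not called in DR against AL, at 0.11 (-0.29 to 0.50), and rose by 0.63 in DR-AL against AL (0.29 to 0.99) and by 0.53 against DR (0.17 to 0.89). The call against AL was lost with size factors, at 0.30, and the deposited FPKM put Saa3 lower in DR-AL than in AL, at 2.92 against 5.91. Macrophage genes summed to 358 CPM in AL fat, 510 in DR and 437 in DR-AL with 0, 0 and 1 of 9 at 0, and their part in the Saa3 values was not tested.

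**Figure D3:**
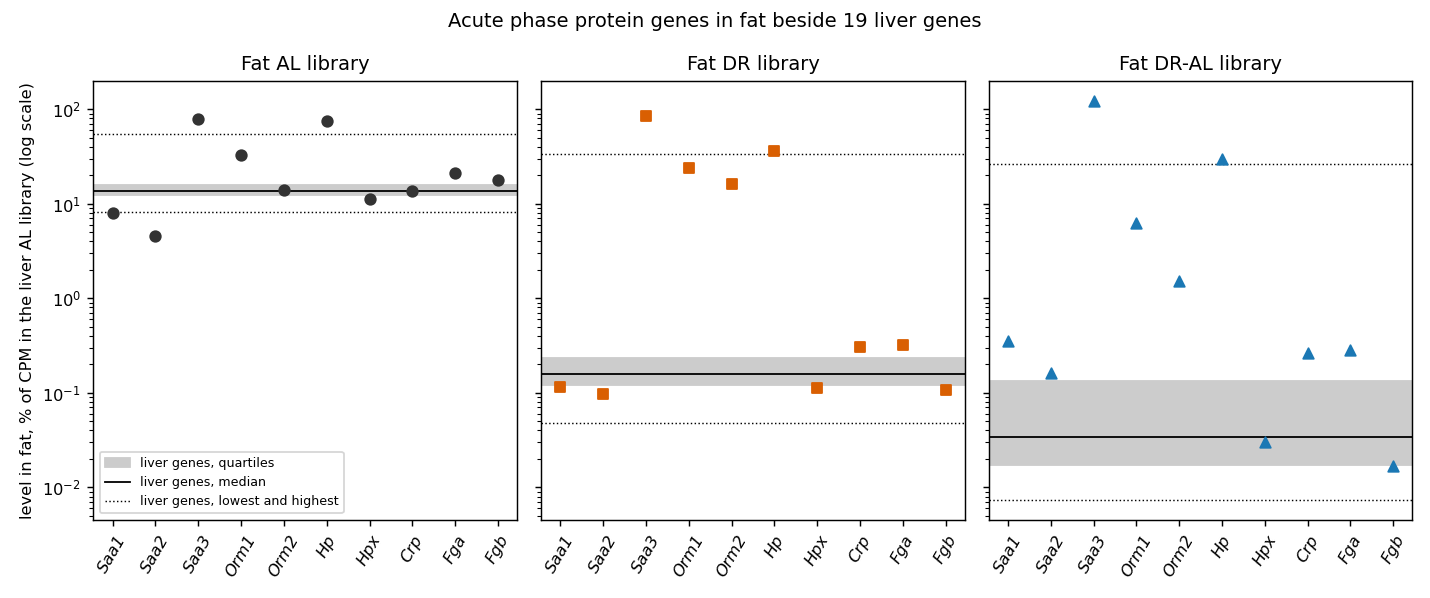
Level of each gene in the 3 fat libraries as percent of its CPM in the AL liver library (log axis), with the median, quartiles and range of 19 liver genes. Hp and Saa3 lie above every liver gene in all 3 libraries, and Orm1, Orm2, Hpx, Crp, Fga and Fgb lie within the range of the liver genes in all 3.

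An alternative took away from each fat library the counts that the liver gene median would give at the levels of the AL liver library. That library served for DR and DR-AL fat as well. Hp still fell, by 0.95 in DR and by 1.23 in DR-AL against AL. Orm1 was at 0.06 in DR against AL, with no call, and fell by 1.86 in DR-AL. Saa1 and Saa2 had 0 counts left in AL and DR fat. Against the DR liver library, DR fat stood at 1.91% for Saa1 and 1.70% for Saa2, from 3 and 1 counts. Hpx had none left in any fat library. DR against AL then gave 4 calls in place of 8, with Hp, Fga and Fgb lower and Orm2 higher, the last from 88 counts left in DR and 2 in AL. The scaling also mattered in fat. For genes averaging at least 10 counts, the median log2 difference was 0.24 in DR and 0.34 in DR-AL against AL with totals, and 0.05 and 0.0 with size factors, while the genes called divided into 5342 higher and 3383 lower in DR and 6817 and 5029 in DR-AL in place of 7183 and 2113 and of 9384 and 2418. For DR-AL against DR they divided into 6434 and 3788 in place of 7816 and 2701. No called member turned direction in fat with size factors, and Saa3, not called in DR against AL, went from 0.11 to -0.08.

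Other positive acute phase genes in fat included Lcn2, the siderophore-binding lipocalin, which rose by 2.09 in DR and by 2.36 in DR-AL against AL, from 939 counts in AL to 3487 and 5024. The deposited FPKM of Lcn2 were 41.7 (AL), 88.2 (DR) and 56.7 (DR-AL), so that DR-AL was highest in CPM and DR was highest in FPKM. In DR against AL, 4 of the 24 loci on the list rose and 17 fell, with a median of -0.85. Those that fell furthest were Fgg (-7.36), Itih3 (-7.31) and Serpina3k (-6.89), liver proteins that moved with the liver gene list. Orm3 rose by 0.54. Against AL, in DR-AL, 4 rose, led after Lcn2 by Mt2 (1.24) and Mt1 (0.86), and 15 fell. On the FPKM scale both metallothioneins were lower in DR-AL than in AL, Mt2 at 202 against 258 and Mt1 at 198 against 335. From DR to DR-AL, 7 rose and 9 fell, with Mt2 (0.86 from counts, and 198 to 202 in FPKM) among those higher. Negative acute phase genes fell, 9 of 10 tested in DR and 10 of 10 in DR-AL against AL, and 9 of 10 in DR-AL against DR. Their medians were -5.56, -8.70 and -2.41, beside -6.36, -8.74 and -2.23 for the liver genes. The lists are not separate, since Ahsg, Apoa2 and Gc are on both. Of the cytokine signalling genes 0 rose and 6 fell in DR, 4 rose and 7 fell in DR-AL against AL, and 8 rose and 2 fell in DR-AL against DR. Adipocyte genes, 9 of 9 with a locus and 0 at 0, summed to 45570 CPM (AL), 37400 (DR) and 31970 (DR-AL) fat. Of the 9, 1 rose and 4 fell in DR against AL (median 0.04), and 0 rose and 6 fell in DR-AL against AL (median -0.59). In DR-AL against DR, 2 rose and 5 fell (median -0.44). Their part in the Hp and orosomucoid values in fat was not tested. Mesothelium genes summed to 139, 266 and 115 CPM.

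In the colon, Saa1 was the member at a high level. It was at 1553 CPM (AL), 1777 (DR) and 2538 (DR-AL), and on the FPKM scale at 3524, 3883 and 6032, above its level in the AL liver library. Saa1 was not called in DR against AL, at 0.19 (0.18 to 0.21), and rose by 0.71 in DR-AL against AL (0.69 to 0.73) and by 0.51 against DR (0.50 to 0.53). Among the 10503 colon genes averaging at least 100 counts, 89 had a higher log2 difference in DR-AL against AL.

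Saa2 counts in colon were 167 (AL), 228 (DR) and 293 (DR-AL). DR-AL was again highest. Saa2 was not called in DR against AL, at 0.12 (-0.18 to 0.41), and rose by 0.89 in DR-AL against AL (0.62 to 1.18) and by 0.78 against DR (0.52 to 1.03). The ratio of Saa1 to Saa2 counts was 247 (AL, 212 to 289), 260.5 (DR, 229 to 298) and 217 (DR-AL, 193 to 244), far above the ratios in liver. Saa2 shared 471 windows with Saa1, of 2641 over all its annotated transcripts. Part of these Saa2 counts could thus be Saa1 reads, and how large a part was not tested.

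Saa3 took another course in the colon. Its counts were 117 (AL), 32 (DR) and 83 (DR-AL). DR was lowest, as in liver. Saa3 fell by 2.18 in DR against AL (-2.81 to -1.63), was not called in DR-AL against AL, at -0.41 (-0.83 to 0.01), and rose by 1.77 in DR-AL against DR (1.19 to 2.43). Macrophage genes summed to 29.6 CPM (AL), 20.5 (DR) and 42.7 (DR-AL) colon with 0, 0 and 1 of 9 at 0, and adipocyte genes to 63.2, 31.7 and 55.5 CPM with 0, 1 and 0 of 9 at 0. Both lists were lowest in DR, and their part in the Saa3 difference was not tested.

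The other members were near background in the colon. Hp had 59, 25 and 35 counts and Hpx 43, 28 and 12 in AL, DR and DR-AL. Fga, Fgb, Orm1 and Crp had between 1 and 33 counts, and Orm2 had 0 in each library and was not tested. These levels were at most 0.0746% of the AL liver CPM, where the liver gene medians were 0.0310% to 0.0474%. In DR against AL, Saa3, Hp and Hpx fell and 0 of the 9 tested members rose, beside 10.6% of 18242 colon genes called lower and 9.04% called higher. In DR-AL against AL, Saa1 and Saa2 rose and Orm1, Hpx and Fga fell, beside 5.83% called higher and 8.5% called lower. In DR-AL against DR, Saa1, Saa2 and Saa3 rose and Fga and Fgb fell, beside 6.78% and 7.67%. The median of the 9 was -0.65 in DR and -1.03 in DR-AL against AL and -0.14 in DR-AL against DR, beside 0.0, -0.01 and -0.02 over all genes tested. With a coefficient of variation of 0.4 allowed between libraries, 0 member calls were left in the colon, and with size factors Hp passed in DR-AL against DR, at 0.91.

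**Figure D4:**
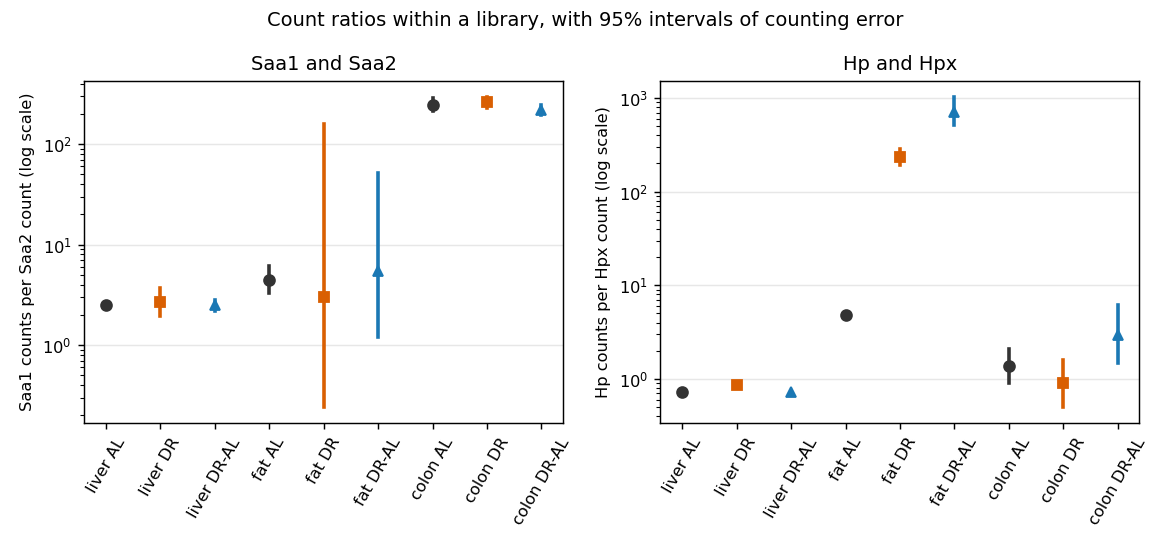
Ratio of Saa1 to Saa2 counts and of Hp to Hpx counts within each library of liver, fat and colon (log axes), with 95% intervals of counting error. The Saa1 ratio is between 2.48 and 2.68 in liver and between 217 and 260.5 in colon, and the Hp ratio is highest in the fat libraries of DR and of DR-AL.

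Of 24 loci of other positive acute phase genes, 0 rose and 5 fell in DR against AL in colon, among them Mt2 (-0.69), C3, the central complement protein (-0.42), and Mt1 (-0.37). C3 rose by 0.87 in DR-AL against AL, as the 1 gene of the list called higher, and 2 fell. From DR to DR-AL, 5 rose, including C3 (1.29) and Mt2 (0.78), and 1 fell. Of 24 cytokine signalling genes tested, 1 rose and 1 fell, 0 rose and 3 fell, and 0 rose and 1 fell in the same 3 comparisons. Socs3 fell by 0.53 in DR and by 0.48 in DR-AL against AL, and Cebpd rose by 0.37 in DR. Colon epithelium genes, 9 of 10 with a locus and 0 at 0, summed to 21460, 21470 and 21820 CPM in AL, DR and DR-AL.

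In hypothalamus and hippocampus every member had 32 counts or fewer, the highest being Saa1 in the AL hypothalamus library. Crp had at most 3 counts, Orm2 at most 1 and Saa3 at most 1. No call of change was made there.

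The 15 libraries together allow a fit in which each diet has 5 libraries, with tissue as a term, although the tissues share pools of mice. In edgeR's quasi-likelihood test, 0 of the 10 members passed in either comparison after Benjamini-Hochberg adjustment. The adjusted p of every member was 0.9998 in DR against AL and lay between 0.852 and 0.953 in DR-AL against AL. Over all 17476 genes, 2 (0.0114%) and 1 (0.00572%) passed. At an unadjusted p under 0.05 there were 4 members in DR (Hp, Saa2, Crp and Saa1) and 3 in DR-AL (Orm2, Orm1 and Hp), each lower than in AL, beside 657 (3.76%) and 862 (4.93%) of all genes tested. Without the fat libraries, Crp in DR went from -3.11 to -0.17 on the log2 scale (unadjusted p of 0.781 in the same edgeR test) and Hp in DR-AL from -0.64 to -0.26 (0.309). In the same test without fat, Saa2 in DR was at -2.07 (0.0161), Hp in DR at -0.70 (0.0182) and Saa1 in DR at -1.61 (0.0722). In DR-AL, Orm1 was at -0.82 (0.0179) and Orm2 at -1.76 (0.00163). Saa3 in DR was at -1.77 (0.00248, or 0.549 adjusted). Among the tissues of that fit, Hp differed by -0.16 in liver in DR against AL. Its AL and DR counts were 59 and 25 in colon, 16 and 10 in hypothalamus and 8 and 6 in hippocampus. Without the liver libraries in place of fat, the edgeR test gave -2.19 (0.0870) for Saa2 in DR, -1.84 (0.164) for Saa1 and -0.83 (0.303) for Saa3. Hp in DR was at -1.14 (0.00279) there. DESeq2 also called 0 members, with a lowest adjusted p of 0.140 in DR and 0.276 in DR-AL.

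For each member, the gene outside the lists with the most similar log2(CPM + 0.5) over the 15 libraries was found among 13969 genes, as a description. Hp was most like C1s, a complement protease gene (Pearson r 0.997), Hpx most like Apoa5, an apolipoprotein gene (0.999), and Crp most like Cyp2a12, a cytochrome P450 gene (0.998). Fga was most like Fetub (0.997) and Fgb most like Serpina1a, an alpha-1 antitrypsin gene (0.999). Orm1 was most like Vnn3 (0.993) and Orm2 most like Urod, a heme synthesis gene (0.992). Saa1, high in colon and liver, was most like Ces2c, a carboxylesterase gene (0.985). Saa2 was most like Cpt1a, which carries fatty acids into mitochondria (0.947), and Saa3 most like a locus named for both Ifi47 and Olfr56 (0.988). The points share tissue, so these values rest mainly on which tissues express the genes.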

How the data were processed

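RNA-Seq libraries were rRNA-depleted, stranded and paired-end, and each came from the pooled RNA of 5 mice. The authors deposited 1 table holding counts and FPKM for each locus in each of 15 libraries, and all 30 columns were used. The deposited counts are whole numbers that are not normalized. The deposited FPKM are scaled by transcript length, and their scaling between libraries is not stated. According to the methods, duplicate reads were removed, which could lower the counts of abundant transcripts, and reads were aligned to mm10, while the submitters' processing notes name mm9 and DESeq2.

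Members and lists were chosen with earlier results of these data known. Counts on named loci were divided by their total, and loci with no name held 0.258% to 1.39% of liver, fat and colon counts. The Z test of the methods used square roots, a Poisson variance and Benjamini-Hochberg adjustment over genes with at least 1 count in the tissue. Ratios have exact Clopper-Pearson 95% intervals. edgeR 4.0.16 and DESeq2 1.42.0 in R 4.3.3 and Python 3.11.15 were used. All members were named. From every other list the text takes genes called changed, at most 3 per direction by log2 difference among genes averaging at least 100 counts, and Fgg, Saa4, Orm3, Il6, Cebpd, Socs3, Emr1, Lyz2, Marco, Kng1, Ambp, Cps1 and Cyp2e1 where they fall outside that rule were chosen after their values were seen. Where a symbol had several loci, that with most counts was used. The scripts were tested on simulated data.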

Additional observations from a re-analysis of the deposited data

Results flagged for a closer look

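Some genes went in opposite directions in different tissues under the same comparison. Each tissue has 1 library per diet, so these differences between tissues were not tested. In DR-AL against AL, Saa1 and Saa2 fell in liver and fat and rose in colon. The log2 difference of Saa1 was lower by 2.43 in liver than in colon (liver minus colon -2.43) and lower by 5.15 in fat than in colon (fat minus colon -5.15). For Saa2 the same values were -2.61 and -5.38. The fat counts in DR-AL and AL were 11 and 239 for Saa1 and 2 and 54 for Saa2. With the liver gene share taken away, both genes had 0 counts left in AL fat. Part of the Saa2 counts in colon could be Saa1 reads, which was not tested. Crp rose in liver and fell in fat in DR-AL against AL, with a liver minus fat difference of 6.11. Hpx rose in liver and fell in fat in DR-AL against DR, with a liver minus fat difference of 2.36. The fat value of Hpx was -1.89, from 34 counts against 106. Among the 19 liver genes in that fat comparison, 16 fell and 1 rose, with a median of -2.23. The part of the liver genes in the Hpx value was not tested. The values that involve AL fat stand beside the liver genes in that library, whose median log2 difference in DR-AL against AL was -8.74.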

How the results depend on the processing

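With 1 library per tissue and diet, no replicate could be left out, and depth limits Saa1 and Saa2 in fat and most members in colon. No paired analysis was possible because no group has a replicate within a tissue, except in the fit over all tissues, where tissue paired the libraries as a term and leaving it out gave 0 member calls. Of 717 log2 differences of single members under alternatives, 605 kept their side of the threshold and, where called, their direction. With a fold change of at least 2, the liver gave 3 member calls in DR-AL against AL and 4 in DR-AL against DR, and the colon 3 in each of those comparisons. With a coefficient of variation of 0.4 allowed, the liver gave 2 in DR against AL and 0 in the other 2 comparisons, fat gave 0 in DR-AL against DR, and the colon gave 0 in all 3. With a coefficient of 0.1, the colon gave 3 in DR-AL against AL and 2 in DR-AL against DR. From FPKM with a pseudocount of 0.1, fat gave 8 in DR-AL against DR, and the colon gave 5, 8 and 8 in DR against AL, DR-AL against AL and DR-AL against DR. Saa3 in fat turned direction with FPKM, to -0.99 with a pseudocount of 0.1 and -0.82 with a pseudocount of 1 in DR-AL against AL, and to -0.28 and -0.22 in DR-AL against DR. FPKM stood lower beside CPM in DR-AL fat than in AL fat for Hp and Mt2 as well, not for Saa3 alone. Hp had 2224 CPM and 1033 FPKM in AL fat, and 892 CPM and 131 FPKM in DR-AL fat. Mt2 had 84.0 CPM and 258 FPKM in AL fat, and 199 CPM and 202 FPKM in DR-AL fat. The cause was not tested. With the liver gene share taken away, fat gave 4 calls in DR against AL, Orm1 (0.062) and Crp (1.06) turned direction in DR against AL, and Saa1 (4.23), Saa2 (2.19), Orm2 (1.84) and Crp (1.66) turned in DR-AL against AL, where AL fat had 6 or fewer counts left, so that these sizes depend on the pseudocount. From FPKM, the liver genes stood at a median of 4.75%, 0.0379% and 0.00375% of their liver level in AL, DR and DR-AL fat. In the fit over all tissues, the alternatives gave 0 member calls.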
